A study of Mus musculus with 42 samples.

Results

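The comparison of aorta from the macroangiopathy group (C) with aorta from the healthy group (G) took 6 of the 42 arrays of the series, 3 per group, chosen by the tissue and group in the sample labels. The healthy mice were C57BL/6, and the macroangiopathy mice were KK/Ay mice that received a high-fat diet together with the nitric oxide synthase inhibitor L-NAME (0.2 mg/ml in the drinking water) for 8 weeks. All mice were male, were 18 to 20 weeks old, and, in the groups described here, received saline by gavage for a further 8 weeks. The diabetic group (A), used beside the others where stated, held KK/Ay mice given saline without the diet and L-NAME. Skeletal muscle of the macroangiopathy and healthy groups (6 arrays) was also used, and the labels do not tie a muscle array to an aorta array of the same animal. The macroangiopathy and healthy mice were of different strains, so the contributions of strain, diet and L-NAME to a difference between C and G cannot be told apart, and C vs A compares mice of the same strain.

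The wall of the aorta consists of an endothelial lining, a media of contractile smooth muscle cells between sheets of elastic fibres, and an adventitia of fibroblasts and collagen that is embedded in perivascular fat, which in the mouse thorax is largely brown. Smooth muscle relaxes when endothelial nitric oxide raises cyclic GMP, the step that L-NAME blocks. KK/Ay mice carry the yellow agouti allele, which drives the agouti gene throughout the body, and they become obese, insulin resistant and hyperglycaemic. Expression is given as log2 intensity after quantile normalization, and a difference of 1 on that scale is a doubling. Levels were compared between arrays for a gene and not between genes.

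The tissue was checked against markers first. The smooth muscle genes Acta2 and Myh11 were well above background on all 6 arrays, and so were markers of other tissues. Ucp1, the uncoupling protein that defines brown fat, stood at 14.98, 17.45 and 16.47 in healthy aorta and at 16.91, 16.81 and 15.99 in macroangiopathy aorta. The atrial light chain Myl7 stood at 9.82, 13.07 and 13.73 in healthy and at 14.39, 13.28 and 6.18 in macroangiopathy aorta, and the fast skeletal muscle gene Tnni2 at 8.79 to 15.89 over the 6 arrays. Fat, heart and skeletal muscle RNA thus varied between arrays of a group. Healthy 1 stood apart: its correlation with the other aorta arrays of these groups and of group A was 0.83 to 0.90, against 0.92 to 0.99 among the others. The mean level of 16 lymphocyte markers was 10.40 in healthy 1, 6.4 in healthy 2 and 8.06 in healthy 3, and 6.60, 6.45 and 8.71 in macroangiopathy 1, 2 and 3. The number of these markers well above background was 16, 11 and 14 in healthy and 14, 14 and 16 in macroangiopathy aorta. The B cell receptor gene Cd79b reached 14.91 in healthy 1 and 13.50 in macroangiopathy 3 and stayed between 8.08 and 11.01 on the others. Counts of the genes called and of many lists below are therefore also given without healthy 1, and those of the other lists are not. The part of the lymphocyte signal in each result was not tested beyond that. Fewer cells of a type and less RNA per cell cannot be told apart in bulk tissue.

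**Figure D1:**
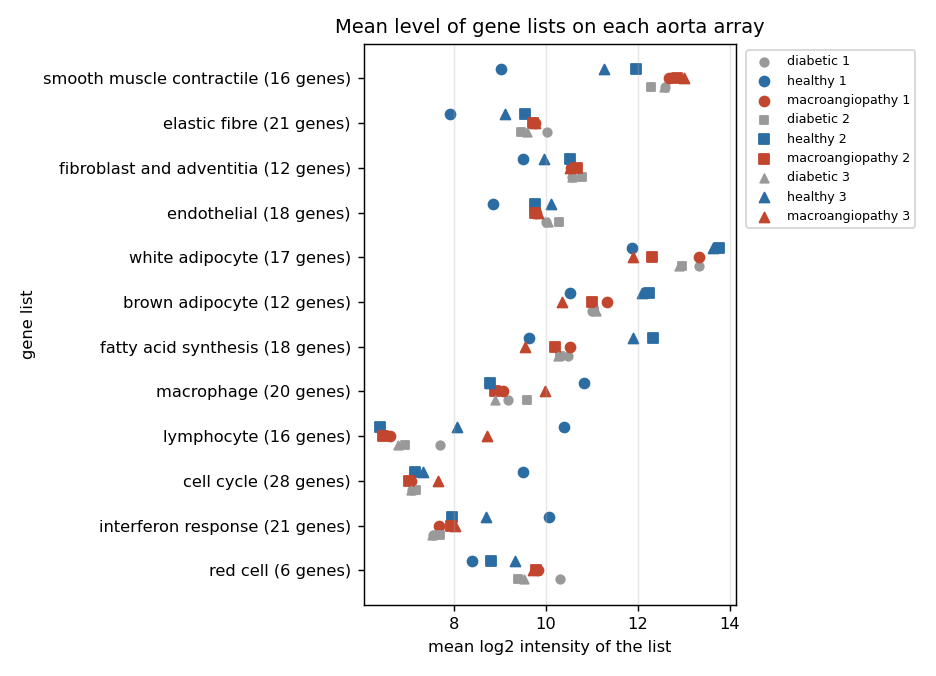
Mean log2 intensity (x axis) of the measured genes of 12 lists (y axis) on each of 9 aorta arrays, with 1 point per array, blue for healthy, red for macroangiopathy and grey for diabetic mice. Healthy 1 lies at 9.03 for the smooth muscle list, where the other healthy arrays lie at 11.95 and 11.27, and it is the highest array for the lymphocyte list, at 10.40.

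Of 15625 genes tested between macroangiopathy and healthy aorta, 40 (0.256%) passed after Benjamini-Hochberg adjustment, 15 of them higher and 25 lower in C, with a smallest adjusted P value of 0.00238 (limma). At the unadjusted threshold of 0.05 that the study's methods use, 2918 genes (18.7%) passed, 1765 (11.3%) higher and 1153 (7.38%) lower. Without healthy 1, 11.9% of all genes were higher and 11.1% lower at this threshold, and without healthy 1 and macroangiopathy 3, 7.85% were higher and 7.69% lower. The median difference of all genes tested was 0.02. In all 40 the arrays of the groups did not overlap, which held for 28.2% of the genes tested. Selection by P value on these arrays makes this nearly certain for the 40. Of the 40, 37 also passed in a fit of all 21 aorta arrays (6.78% of genes passed there), and all 40 kept their direction and an unadjusted P value under 0.05 when healthy 1 was left out. The arrays that chose the 40 also enter these fits and the slide fit below, so none of them is an independent check. Healthy 1 and 3 shared slide 1 and a scan day that held no macroangiopathy array. With a term for slide 1, 39 of the 40 kept their direction and passed unadjusted, where 18.5% of all genes passed. The macroangiopathy arrays all lay on slide 6 and healthy 2 on slide 2, so no slide held aorta arrays of both groups. The term for slide 1 therefore leaves slide 6 confounded with the macroangiopathy group. The number called after adjustment was unstable: it was 212 without healthy 1, 380 without healthy 2, 3 without macroangiopathy 1, and 0 without healthy 3, macroangiopathy 2 or macroangiopathy 3, where limma called 2270, 1383 and 1523 genes unadjusted.

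The increase with the smallest P value was that of the agouti gene itself, listed as a (nonagouti, probe at chr2:154871493-154873446, mm9), which encodes an antagonist of melanocortin receptors. It read 5.30, 5.49 and 5.46 in healthy and 9.05, 9.19 and 9.04 in macroangiopathy aorta. None of the healthy arrays was well above background for it, so the difference is at least 10.8-fold (adjusted P = 0.00238, limma). It served as the check on the strain labels, and all 6 arrays read as labelled. On the diabetic arrays it read 9.41, 9.09 and 8.88, and in muscle it differed by 3.84. Of the other measured genes at this locus, Eif2s2, a subunit of translation initiation factor 2 whose gene lies in the deletion of the yellow allele, was 0.90 ± 0.21 (SE) lower at the unadjusted threshold, with its 3 probes ranging from -1.94 to -0.05. Raly, the neighbouring gene whose promoter drives agouti in this allele, differed by -0.60 (adjusted P = 0.423) and Ahcy by -0.03.

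Among the genes that passed after adjustment, the largest increase was in Gdpd3 (chr7:133914520-133914693, mm9), a phosphodiesterase that forms lysophosphatidic acid. It read 6.25, 6.97 and 6.4 in healthy aorta and 11.69, 11.20 and 11.40 in macroangiopathy aorta, a difference of 4.89 ± 0.24 (SE), or 29.6-fold (adjusted P = 0.00588, limma). The healthy arrays stayed close to 6 to 7 and every macroangiopathy array lay above 11. Hal, which starts the breakdown of histidine, read 6.30, 5.62 and 5.67 against 9.97, 9.29 and 9.57 (adjusted P = 0.0172). Of its healthy arrays only 1 exceeded background clearly, so no exact fold is given. Ifi202b, an interferon-inducible DNA sensor of the p200 family, was not well above background on any healthy array and read 8.21, 8.39 and 8.95 in C, at least 7.2-fold higher. These genes separated the groups by more than 2.5 on every pair of arrays.

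Genes with a role in the vessel wall were also among these increases. Tnfrsf11b encodes osteoprotegerin, the decoy receptor for RANK ligand that restrains bone resorption and vascular calcification. It read 6.48, 7.65 and 6.98 in healthy and 9.96, 9.89 and 9.88 in macroangiopathy aorta, 7.34-fold higher (2.88 ± 0.30, adjusted P = 0.0366, limma). The macroangiopathy arrays were nearly equal, whereas the healthy ones were spread. Abcc9, the sulfonylurea receptor subunit of the ATP-sensitive potassium channel of smooth muscle, read 7.57, 8.46 and 8.33 in healthy aorta and 10.47 or more on every macroangiopathy array (2.45 ± 0.26, adjusted P = 0.0374), and its 3 probes gave 1.10 to 3.28. Crip1, a small LIM-domain protein, was already bright in healthy aorta (12.84 to 13.24) and rose 3.83-fold. Wasf1, an activator of actin branching, rose by 1.58 and Ccnb1ip1, a ubiquitin ligase of meiotic recombination, by 1.46. Ocel1 rose by 2.65.

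The remaining increases that the rule names were small or near background. Lypd1, a Ly6-type protein that binds nicotinic receptors, and Prl2a1, a placental member of the prolactin family, were not well above background on any healthy array and were at least 2.26-fold and 2.08-fold higher in C. Rbm45, Epp13 and Cdh15 filled the list without passing after adjustment (adjusted P = 0.0519, 0.064 and 0.064, limma). Rbm45 was not well above background on any healthy array and was at least 2.3-fold higher, Epp13, well above it on 2 of 3 healthy arrays, read 1.51 higher and Cdh15 was 1.94 higher. Cdh15 encodes M-cadherin of muscle precursor cells.

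The largest decreases were in major urinary proteins, lipocalins that carry pheromones and are made mostly by the liver. Mup1 (chr4:60511965-60512188, mm9) read 11.11, 13.44 and 13.03 in healthy and 6.24, 6.62 and 6.63 in macroangiopathy aorta, a fall of 65.3-fold (-6.03 ± 0.60, adjusted P = 0.0332, limma). Mup4 read 10.58, 12.98 and 12.27 against 6.76, 6.77 and 6.77 (-5.18, adjusted P = 0.044). Even healthy 1, the lowest of its group for both, stood more than 3 above every macroangiopathy array. All 4 Mup genes tested passed unadjusted in the same direction, with Mup5, well above background on 2 of 3 macroangiopathy arrays, at -3.27 and Mup3 at -0.84. The Mup genes, like the Orm genes below, are near-identical copies, so a probe cannot be assigned to a member with certainty.

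A plasma protein and enzymes of lipid and drug metabolism fell as well. Orm2 and Orm3 encode alpha-1-acid glycoprotein, an acute-phase plasma protein. Orm2 read 10.71, 11.08 and 11.32 against 8.14, 7.55 and 6.83 (11.5-fold lower, adjusted P = 0.0343, limma), and Orm3 fell by 2.49. Cyp2e1, a cytochrome P450 that oxidizes ethanol and acetone, read 11.34, 11.34 and 11.36 in healthy aorta and 8.45, 7.29 and 7.89 in C (11.1-fold lower, adjusted P = 0.0213). Ehhadh, the bifunctional enzyme of peroxisomal fatty acid oxidation, read 11.56, 10.73 and 11.87 against 8.33, 8.09 and 7.88 (9.76-fold lower, adjusted P = 0.0311). Mfsd2a, a transporter of lysophosphatidylcholine, fell by 2.47, and Ptges, which makes prostaglandin E2, by 2.29. The groups did not overlap for any of these, as the rule required.

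Pttg1 and Cdkn1a, both regulators of cell division, were also lower. Pttg1 (securin, which keeps sister chromatids from separating until anaphase) read 12.50, 12.84 and 12.96 in healthy and 9.12, 9.42 and 9.67 in macroangiopathy aorta, 10.3-fold lower (-3.37 ± 0.21, adjusted P = 0.0135, limma). Cdkn1a, which encodes the cyclin-dependent kinase inhibitor p21, read 11.13, 11.51 and 11.77 against 8.45, 8.35 and 7.65 (9.97-fold lower, adjusted P = 0.0213). Of 23 cell cycle genes tested only Pttg1 and Mcm6, a subunit of the replicative helicase, passed unadjusted. Both were lower, a share near that of all genes (7.38%). Without healthy 1, Pcna (-0.56) fell as well and Mcm3 (0.7) rose, where 11.1% of all genes fell and 11.9% rose. The mean level of the list was 9.49, 7.14 and 7.33 in healthy and 7.07, 7.02 and 7.65 in macroangiopathy aorta, so healthy 1 alone was high. Among the other decreases, the zinc finger gene Zfp979 read 7.27, 7.82 and 8.59 in healthy aorta. It was not well above background on any macroangiopathy array, and no bound on its fold is given. Zfp874a, also a zinc finger gene, fell 4-fold (well above background on 2 of 3 macroangiopathy arrays). Rnf125, a ubiquitin ligase, fell by 1.98, and Tomm22, a receptor for protein import into mitochondria, by 1.87. Thumpd1, a cofactor of tRNA acetylation, fell by 2.19 on average, but its probes gave -4.43 and 0.05.

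**Figure D2:**
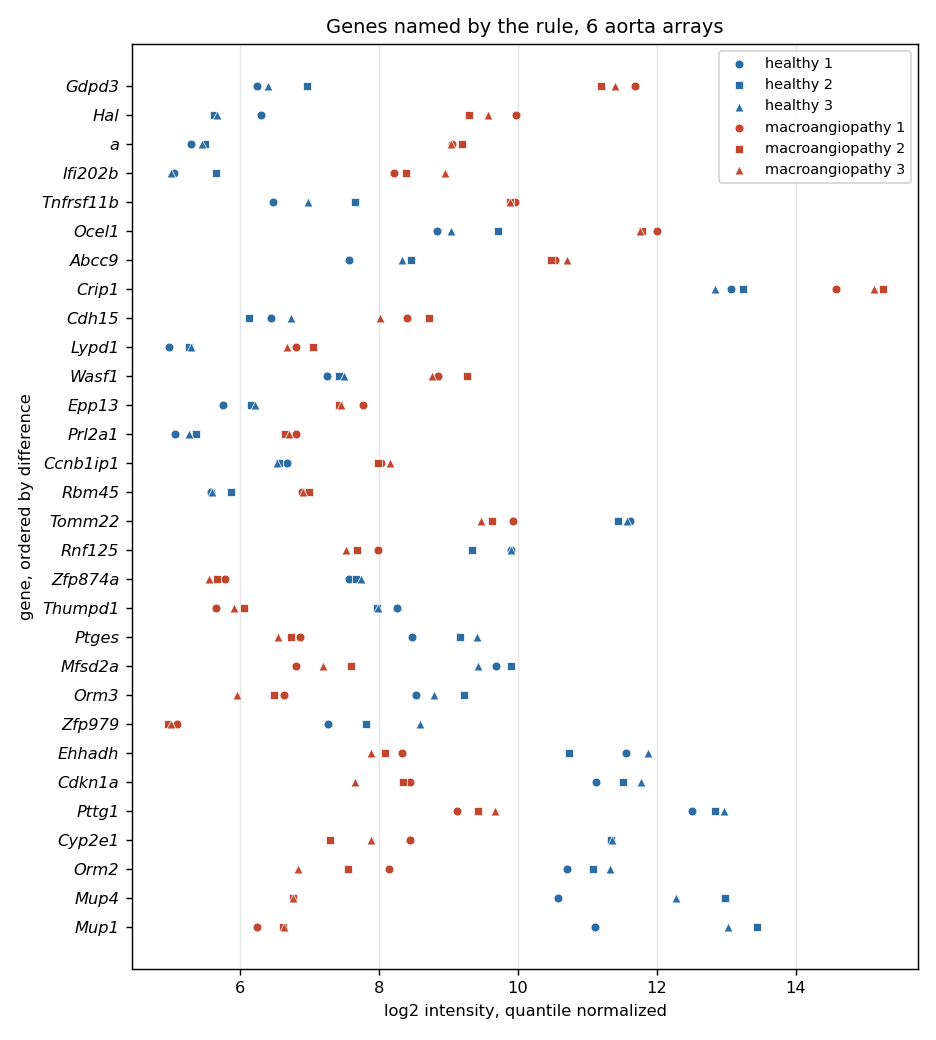
Log2 intensity (x axis) of the 30 genes named by the rule (y axis, from the largest increase to the largest decrease) on the 3 healthy (blue) and 3 macroangiopathy (red) aorta arrays, with a marker shape for each replicate number. The colours do not overlap for any of the 30, as the rule required, and Gdpd3 (4.89 higher in C) and Mup1 (6.03 lower in C) lie at the ends.

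Contractile genes of smooth muscle were higher in macroangiopathy aorta. Of 16 tested, 13 rose at the unadjusted threshold (11.3% of all genes did) and none fell. Their median difference was 2.14, against 0.02 for all genes, and none passed after adjustment. Myh11, the smooth muscle myosin heavy chain, read 9.15, 13.94 and 12.64 in healthy and 14.82, 15.02 and 15.38 in macroangiopathy aorta (3.17 ± 1.17). Healthy 1 was far below the others, and the remaining healthy arrays still lay below every macroangiopathy array. Tropomyosin (Tpm2) differed by 2.88, the myosin kinase gene Mylk4 by 2.86 and calponin (Cnn1) by 2.80. Acta2, smooth muscle actin, chosen here after its values were seen, read 8.99, 12.16 and 11.25 against 12.67, 12.77 and 12.94. Without healthy 1 the same number of genes, 13, rose (11.9% of all genes did) and the median was 1.25. The white fat and lymphocyte markers described above and below moved on the same arrays, and their part in this difference was not tested.

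Of 14 ion channel and calcium handling genes of the vessel wall, 6 rose (11.3% of all genes did), none fell and 8 did not pass. Beside Abcc9, these were Kcnmb1 and Kcnma1, the subunits of the large calcium-activated potassium channel that relaxes smooth muscle, at 1.43 and 0.95, Cacna1c, the L-type calcium channel that contracts it, at 1.19, and Cacnb2 and Kcnj8, the pore partner of Abcc9, at 0.67 and 0.63. Kcnmb1 read 5.24, 7.05 and 5.72 in healthy and 7.42, 7.43 and 7.44 in macroangiopathy aorta, without overlap. In healthy aorta Kcnma1 was well above background on 1 of 3 arrays, and Kcnmb1, Cacna1c and Cacnb2 on 2. Without healthy 1, 7 of the 14 rose (11.9% of all genes), and without healthy 1 and macroangiopathy 3, 3 did (7.85%).

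Of 19 elastic fibre genes, 8 rose (11.3% of all genes did), none fell and 11 did not pass, with a median of 0.69. Mfap4, a microfibril-associated glycoprotein, read 8.37, 12.25 and 10.51 in healthy and 13.88, 13.66 and 13.79 in macroangiopathy aorta (3.40 ± 0.91). Ltbp4, which tethers latent TGF-beta to microfibrils, differed by 2.16, and the fibulins Fbln1 and Fbln2 by 2.09 and 1.86. Each of these was tighter in C than in G and did not overlap. The elastin gene Eln, chosen after its values were seen, was among the 11 that did not pass. Without healthy 1, 8 rose and 2 fell, against 11.9% and 11.1% of all genes.

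Of 18 collagen chains, 3 rose, a share near that of all genes (11.3%), and none fell. Col18a1, a basement membrane collagen, read 9.30, 13.31 and 11.75 against 14.20, 14.05 and 14.19, while Col14a1 and Col1a2 differed by 1.16 and 1.09. Without healthy 1, 4 rose and 2 fell (11.9% and 11.1% of all genes). Among 12 fibroblast and adventitia markers, the proteoglycan gene Lum (1.37) and Serpinf1 (1.06) rose, and the other 10 did not pass.

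Metalloproteinases and their inhibitors went in both directions. Mmp3, stromelysin, which degrades proteoglycans and basement membrane, read 11.99, 10.94 and 9.63 in healthy and 7.04, 7.34 and 6.98 in macroangiopathy aorta, lower by 3.73 ± 0.57. It was the only decrease among the 15 tested (7.38% of all genes fell), against 5 increases (11.3%), and its healthy arrays were spread over more than 2. Timp3 and Timp2, tissue inhibitors of metalloproteinases, differed by 1.97 and 1.5, and Mmp23 by 1.69. Without healthy 1, Mmp3 was lower by 3.16, and 6 of the 15 rose (11.9% of all genes did).

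TGF-beta and fibrosis genes rose in 6 of 18 cases, where 11.3% of all genes did. Ccn2, connective tissue growth factor, read 11.18, 13.80 and 12.75 against 13.83, 15.27 and 14.28 (1.89), Tgfb2, a TGF-beta ligand, differed by 1.56, the feedback inhibitor Smad7 by 1.26 and the matrix protein gene Tgfbi by 1.04. The highest healthy array lay just below the lowest macroangiopathy array for Ccn2 (13.80 and 13.83). With the slide term 2 of the 18 rose, near the share of all genes in that fit (9.54%), and without healthy 1, 4 did (11.9%).

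Genes linked to vascular calcification rose in 5 of 12 cases (11.3% of all genes did), and Tnfrsf11b was the only one past adjustment. Mgp, matrix Gla protein, which inhibits calcification, read 12.64, 15.93 and 13.77 in healthy and 16.98, 17.19 and 17.11 in macroangiopathy aorta (2.98 ± 0.79). Sost, the Wnt inhibitor sclerostin, differed by 1.38, although its probes gave 0.30 and 2.46. Ibsp, bone sialoprotein, was not well above background on any healthy array and was at least 1.69-fold higher in C. Mgp and Tnfrsf11b restrain mineral deposition, whereas Ibsp and Bmp2 (0.43) are known to promote it. Without healthy 1, 5 rose and 2 fell, against 11.9% and 11.1% of all genes.

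**Figure D3:**
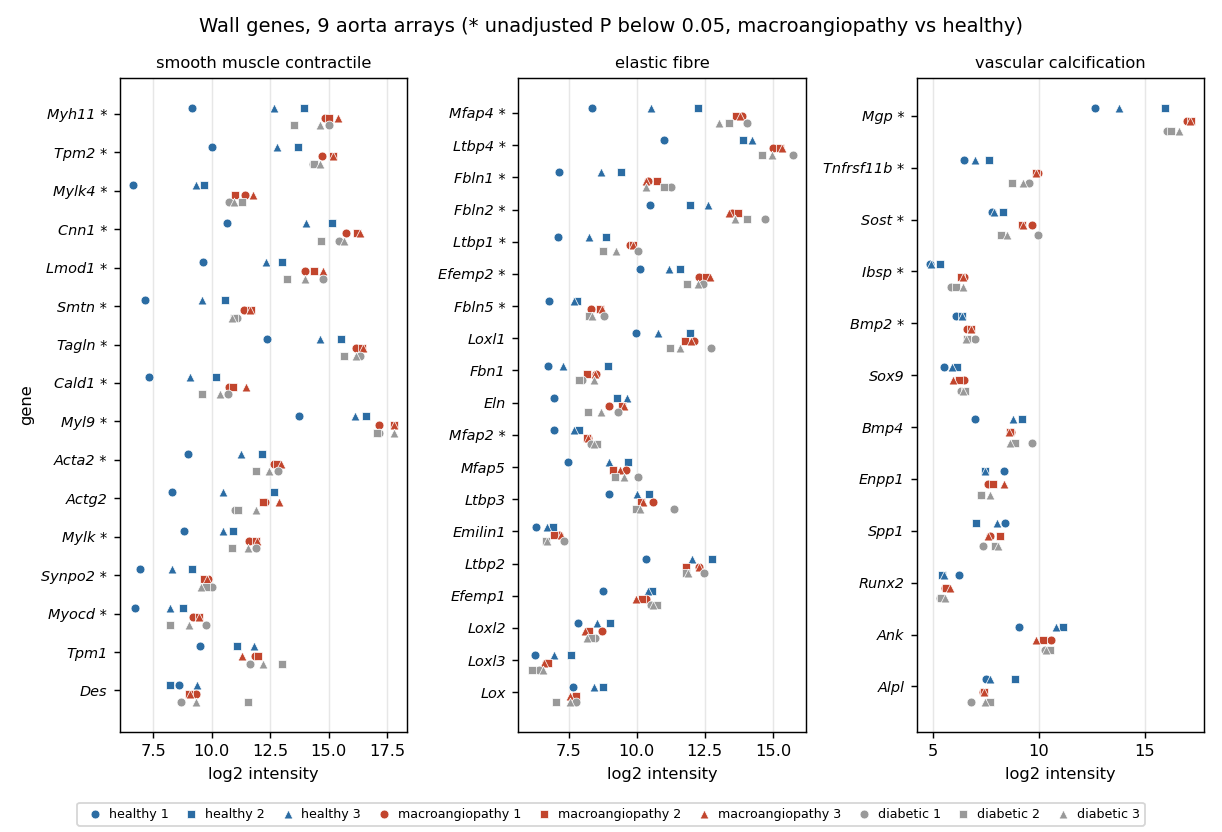
Log2 intensity (x axes) of smooth muscle, elastic fibre and calcification genes (y axes, ordered by difference) on 9 aorta arrays, blue for healthy, red for macroangiopathy and grey for diabetic, with an asterisk where the unadjusted P value for macroangiopathy against healthy was below 0.05. For Myh11 the macroangiopathy arrays lie at 14.82 to 15.38, to the right of all healthy arrays.

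Of 15 genes of the nitric oxide and endothelin pathway, 3 rose (11.3% of all genes did) and none fell. Ddah2, which degrades endogenous inhibitors of nitric oxide synthase, read 8.32, 10.64 and 9.80 in healthy and 11.32, 11.94 and 12.07 in macroangiopathy aorta (2.19 ± 0.59). Gucy1b1, a subunit of the guanylate cyclase that senses nitric oxide, differed by 1.31 and Pde5a, which degrades cyclic GMP, by 0.98. Nos3, the endothelial nitric oxide synthase, chosen after its values were seen, read 8.50, 9.72 and 10.61 against 8.99, 8.95 and 8.84 and did not pass (-0.68 ± 0.51, adjusted P = 0.508, limma). Its macroangiopathy arrays lay inside the range of the healthy ones.

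Of 18 endothelial markers, 1 rose, the transcription factor gene Erg (1.0 ± 0.24). Egfl7 and Icam2, the members with the highest signal, differed by 0.31 and 0.23 and did not pass. Without healthy 1, 1 marker rose and 3 fell (11.9% and 11.1% of all genes), among them Nos3 (-1.24). Of 15 leukocyte adhesion molecules, only Jam3, a junctional adhesion molecule, rose (0.79). Icam2 and F11r, the members with the highest signal, differed by 0.23 and 0.53. In the renin-angiotensin list 1 of 7 passed: Enpep, the aminopeptidase that trims angiotensin II, fell by 0.85, and Atp6ap2 and Agtr1a differed by 0.47 and 0.27 without passing.

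Fat synthesis genes were lower in macroangiopathy aorta, a result that depended on healthy 1. In the comparison of all 6 arrays, 4 of 18 fell (7.38% of all genes did) and 1 rose, whereas without healthy 1, 14 fell and 1 rose and 23% of all genes passed in either direction. The median went from -1.0 to -1.93. Scd1, the desaturase that makes monounsaturated fatty acids, read 13.05, 16.64 and 16.82 in healthy and 11.62, 11.30 and 10.60 in macroangiopathy aorta (-4.33 ± 1.02). Me1, which supplies NADPH for synthesis, read 10.01, 13.84 and 13.34 against 9.64, 9.46 and 8.94 (-3.05), and the elongase gene Elovl6 differed by -2.85. In both, healthy 1 stood close to the macroangiopathy arrays and the other healthy arrays far above. Dgat1, which completes triglyceride synthesis, was lower by 1.55 with overlap, and the desaturase gene Fads1 was higher by 0.83. Fasn, fatty acid synthase, chosen after its values were seen, read 11.50, 16.69 and 16.11 against 13.25, 13.05 and 11.54. It did not pass with healthy 1 (adjusted P = 0.448, limma), and its difference was -3.78 without it.

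Adipocyte markers moved with fat synthesis on these arrays. The mean level of 17 white fat markers was 11.86, 13.77 and 13.64 in healthy and 13.33, 12.31 and 11.88 in macroangiopathy aorta, and that of 12 brown fat markers was 10.51, 12.23 and 12.08 against 11.32, 11 and 10.34. Of 17 white fat markers tested, 2 fell and 1 rose (7.38% and 11.3% of all genes), and without healthy 1, 9 fell and 1 rose (11.1% and 11.9%). Retn, the adipokine resistin, read 11.44, 12.39 and 12.99 against 9.4, 7.78 and 7.86 (-3.93 ± 0.57), and Lpl, lipoprotein lipase, was lower by 1.27. Lep, leptin, which reports the size of fat stores, went the other way, from 5.33, 6.18 and 5.26 to 8.75, 7.27 and 7.24 (2.16 ± 0.48), with 1 of the 3 healthy arrays clearly above background. Adipoq, a marker of all white and brown adipocytes, chosen after its values were seen, differed by -0.35 (adjusted P = 0.777, limma). Its healthy and macroangiopathy arrays overlapped, as Ucp1's did.

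Of 11 brown fat markers tested, Elovl3, a cold-induced elongase, read 9.38, 11.73 and 11.12 against 6.56, 6.20 and 5.21 (-4.76 ± 0.67), with 2 of 3 macroangiopathy arrays well above background, and Otop1, a proton channel, was lower by 1.84. Prdm16, a transcriptional regulator of brown fat identity that arteries also express, was higher by 2.23. Without healthy 1, 5 fell and 1 rose, against 11.1% and 11.9% of all genes. Fatty acid oxidation genes passed in 2 of 24 cases, among them Ehhadh (above), where 18.7% of all genes passed. Without healthy 1, 5 of them passed, against 23% of all genes. Among 37 subunits of oxidative phosphorylation, Sdhb fell (-1.16) in the comparison of 6 arrays and 7 genes fell without healthy 1 (11.1% of all genes). The subunits Cox4i1 and Cox5b, with a high signal, differed by -0.43 and -0.85 and did not pass. No gene of 18 in cholesterol synthesis passed, and 7 fell without healthy 1 (11.1% of all genes). Among its bright members, Sc5d, a sterol desaturase, differed by -0.31. The cholesterol efflux genes Nr1h3, the LXR-alpha receptor (-1.21), and its target Abca1 (-0.81) were lower among 11 tested.

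Genes of insulin signalling and glucose transport passed in both directions, where 11.3% of all genes were higher and 7.38% lower. Of 21, Hk2, hexokinase, was lower by 1.72, Igfbp3 by 1.10 and Tbc1d4, which holds back glucose transporter traffic, by 0.67, and the kinase gene Akt1 was higher by 0.43. Hk2 read 10.39, 12.57 and 12.37 against 10.94, 9.95 and 9.29, so healthy 1 lay among the macroangiopathy arrays. The probes of Igfbp3 gave -1.84 to 0.04.

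Circadian genes that passed differed in direction by arm of the clock. In the clock, the activators ARNTL (BMAL1) and CLOCK bind E-boxes of the PER and DBP genes, DBP, TEF and HLF bind D-boxes, and the repressors close the loop, so the arms peak at different hours. The labels and methods do not state the hour at which the tissue was taken. Of 13 output and repressor genes, 6 rose (11.3% of all genes did) and none fell, and of 6 activator-phase genes, 2 fell (7.38%) and none rose. Dbp read 10.98, 13.88 and 10.47 in healthy and 14.47, 13.50 and 14.56 in macroangiopathy aorta (2.40 ± 0.90), with healthy 2 inside the range of C. Per3 read 6.49, 7.72 and 6.47 against 8.87, 8.11 and 8.16 (1.48 ± 0.41), Hlf differed by 1.37 and Tef by 0.98. Arntl read 9.05, 7.82 and 9.49 against 6.53, 7.24 and 7.03 (-1.85 ± 0.45), and Clock was lower by 0.43. For these genes healthy 2 was the array of its group nearest to C. Without healthy 1, 4 output genes rose and 3 activator-phase genes fell (11.9% and 11.1% of all genes), and Dbp and Tef did not pass. Some members went against their list without passing. Per1, Nr1d1 and Bhlhe40 of the output list read lower in C (-0.35, -0.28 and -0.32). Rora and Cry1 of the activator list read higher (0.11 and 0.03).

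The 250 bases before the start of the clock genes show which of these motifs they hold, in RefSeq promoters of the GRCm38.p6 build on the gene's own strand, with the motif in capitals. An E-box (CACGTG, the same on both strands) was found in at least 1 window of 4 of 10 output genes and 1 of 6 activator-phase genes, against 6.86% of all 27025 genes with a window, and a D-box (TTATGTAA or its reverse TTACATAA) in 1 and 0, against 0.977%. Genes with several start sites have several windows, and of all 32851 windows 6.02% hold an E-box and 0.819% a D-box. The motifs do not overlap each other. Tef has 2 start sites that each have an E-box 127 or 138 bases before the start, and Per3 has 2 D-boxes 205 and 158 bases before it. They are shown because both genes rose on the 6 arrays, although Tef did not pass without healthy 1. A match describes the letters only and no binding was measured.
Tef, chr15:81802423-81802672 (+): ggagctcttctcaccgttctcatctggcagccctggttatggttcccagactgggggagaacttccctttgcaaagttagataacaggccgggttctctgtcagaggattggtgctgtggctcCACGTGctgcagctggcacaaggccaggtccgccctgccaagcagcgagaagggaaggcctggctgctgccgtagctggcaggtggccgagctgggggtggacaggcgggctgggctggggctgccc
Tef, chr15:81811164-81811413 (+): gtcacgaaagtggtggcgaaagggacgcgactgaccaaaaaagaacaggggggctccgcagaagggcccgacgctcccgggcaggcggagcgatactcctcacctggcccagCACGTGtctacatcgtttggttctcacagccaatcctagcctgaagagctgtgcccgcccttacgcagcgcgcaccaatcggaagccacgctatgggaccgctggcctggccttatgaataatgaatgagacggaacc
Per3, chr4:151044666-151044915 (-): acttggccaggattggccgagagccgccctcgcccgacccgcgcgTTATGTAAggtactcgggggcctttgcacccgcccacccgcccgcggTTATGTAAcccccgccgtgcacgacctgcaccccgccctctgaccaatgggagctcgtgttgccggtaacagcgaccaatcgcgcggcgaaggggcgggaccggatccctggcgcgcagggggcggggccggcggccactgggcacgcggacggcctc

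**Figure D4:**
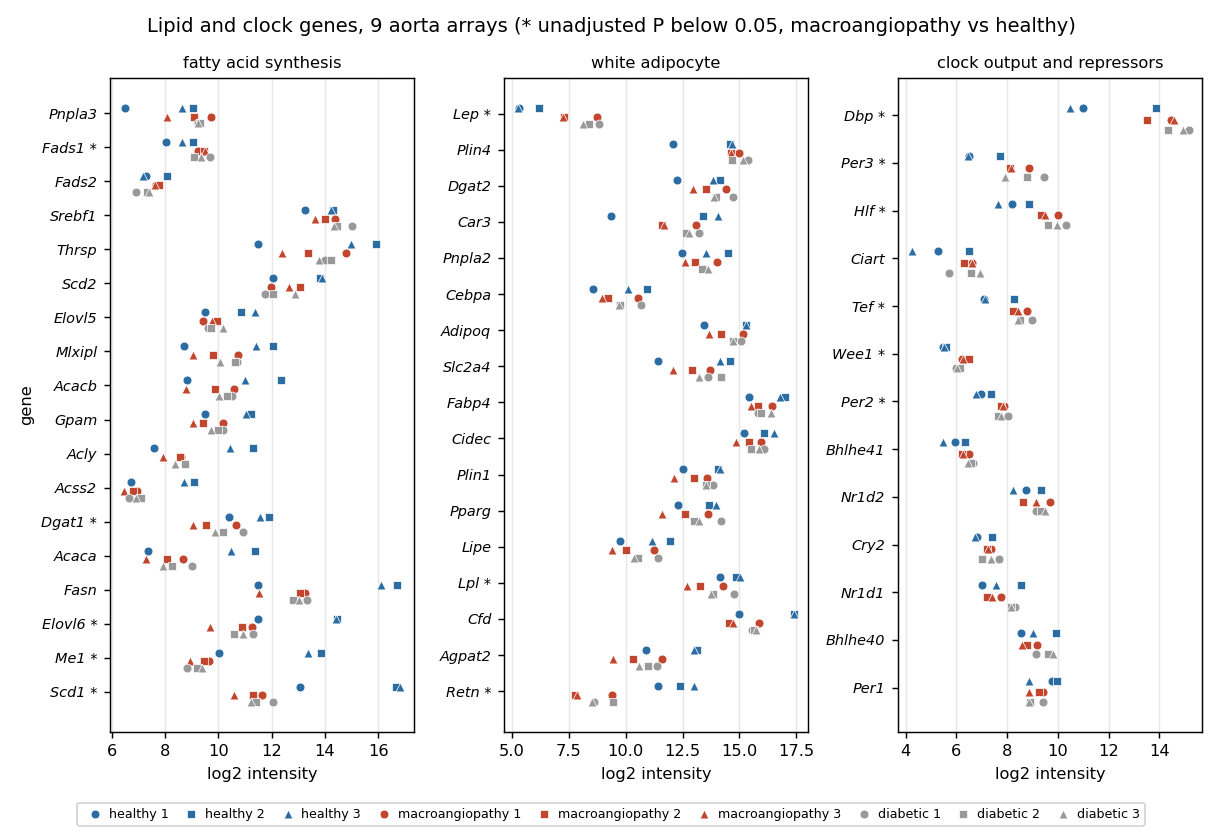
Log2 intensity (x axes) of fatty acid synthesis, white adipocyte and clock genes (y axes, ordered by difference) on 9 aorta arrays, blue for healthy, red for macroangiopathy and grey for diabetic, with an asterisk where the unadjusted P value for macroangiopathy against healthy was below 0.05. For Scd1, healthy 2 and 3 lie near 16.64 and 16.82 and all macroangiopathy arrays at or below 11.62.

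Interferon-responsive genes were lower in macroangiopathy aorta in 3 of 20 cases, where 7.38% of all genes were, and higher in none. Usp18, which shuts down the interferon receptor, read 11, 9.50 and 9.56 in healthy and 7.50, 7.54 and 7.89 in macroangiopathy aorta (-2.38 ± 0.43). Bst2, tetherin, differed by -2.23, and the same number, 3, fell without healthy 1 (11.1% of all genes). All 20 differences were negative, and the median was -0.97 with healthy 1 and -0.40 without it. Tap1, a peptide transporter, was the only one of 15 antigen presentation genes to pass (-1.12), while H2-D1 and Cd74 differed by -0.79 and -0.60. With healthy 1 and macroangiopathy 3 both left out, 9 of the 15 fell (7.69% of all genes). Ifi202b, described above, rose while this list did not.

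Immune cell markers varied between the arrays of a group, and the count of macrophage markers that rose depended on healthy 1. None of 14 lymphocyte markers passed, with or without healthy 1. Cd79b and Jchain, an immunoglobulin linker, differed by -0.85 and -1.04. Of 20 macrophage markers, 3 rose, near the share of all genes (11.3%): Trem2, a lipid-sensing receptor (1.79), Lyz1 (1.51) and Gpnmb (0.55, with probes at -0.38 and 1.48). Trem2 read 8.07, 7.32 and 6.75 against 9.11, 9.30 and 9.07, without overlap. Without healthy 1, 7 macrophage markers rose (11.9% of all genes) and 1 fell. Among 24 chemokines and receptors, Cxcl14 (1.22) and Cxcl12 (0.98) rose (11.3% of all genes did), and Cxcl12 did not pass without healthy 1. Among 15 complement genes 2 rose, among them the C1 inhibitor gene Serping1 (0.76), and C3 fell by 0.88 (7.38% of all genes fell).

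Redox and stress genes passed in both directions, where 11.3% of all genes were higher and 7.38% lower. S100b, a ligand of the RAGE receptor that fat and nerve also express, read 9.68, 11.79 and 11.46 in healthy and 14.53, 14.06 and 13.09 in macroangiopathy aorta (2.91 ± 0.64), and Nox4, the hydrogen peroxide-forming oxidase of smooth muscle, was 1.32 higher, 2 of 12 in that list. Of 19 antioxidant genes, Nnt (1.44) and Nqo1 (0.67) rose and catalase (Cat, -1.38) and Prdx1 (-0.83) fell. Nnt, a mitochondrial source of NADPH, is deleted in part in the C57BL/6J substrain. The labels give the healthy mice as C57BL/6, and a figure legend of the study calls them C57BL/6J. It read 7.91, 7.58 and 8.01 against 8.96, 9.26 and 9.61. In the glucocorticoid list 2 of 9 fell, Cdkn1a and the metallothionein gene Mt2, which read 17.08, 15.33 and 14.66 against 13.17, 13.27 and 13.28. Trib3 (-1.20), Dnajb9 (-0.69) and Asns (-0.66) fell among 17 genes of endoplasmic reticulum stress. Among 12 heat shock genes Hspa8 rose by 0.87 and Dnajb1 fell by 0.56, and among 19 immediate early genes Klf6 (0.80) and Klf2 (0.49) rose and Fos fell by 0.84. Klf2 read 0.30 lower in C once the slide term was fitted.

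Of the markers of other tissues, red cell genes were higher in C. Alas2, which starts haem synthesis, read 11.29, 11.89 and 12.54 in healthy and 13.90, 13.87 and 14.11 in macroangiopathy aorta (2.05 ± 0.32), and Hba-a1 and Ahsp differed by 1.65 and 1.25 (Ahsp well above background on 2 of 3 healthy arrays), so 3 of 5 rose (11.3% of all genes did). No cardiac or skeletal muscle marker passed, although Actc1 (2.55), Myl7 (-0.92), Tnni2 (0.92) and Acta1 (0.44) differed by large amounts on single arrays. Of 12 nerve and Schwann cell markers 1 rose, and Npy and Th, of sympathetic nerve fibres, differed by 0.91 and 0.42.

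The diabetic group, KK/Ay mice without the diet and L-NAME, is set beside the others by its values only, since A vs G shares its healthy arrays with C vs G. Gdpd3 read 11.54, 11.68 and 11.44 in diabetic aorta, Pttg1 read 9.35, 9.0 and 9.23, and Cdkn1a read 7.75, 7.90 and 7.70, all near the macroangiopathy arrays. Scd1 read 12.06, 11.42 and 11.23 and Dbp 15.15, 14.35 and 14.93.

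Within the KK/Ay strain, 591 of 15612 genes (3.79%) passed unadjusted between macroangiopathy and diabetic aorta, 333 (2.13%) higher and 258 (1.65%) lower. The share of 3.79% is below the one that an unadjusted threshold of 0.05 gives on average when no gene differs. By limma none passed after adjustment (smallest adjusted P = 0.421). The number ranged from 310 without macroangiopathy 2 to 1124 without diabetic 1, and was 1023 without macroangiopathy 1. Igfbp2, an insulin-like growth factor binding protein, read 8.07, 8.33 and 7.85 in macroangiopathy and 6.60, 6.58 and 6.72 in diabetic aorta (1.45 ± 0.15 higher), and Leo1, of the Paf1 transcription complex, was 1.19 higher. Prl2a1, well above background on 1 of 3 diabetic arrays, read 1.44 higher. Msln, mesothelin of the mesothelial lining, read 6.94, 6.25 and 5.80 against 8.74, 8.56 and 7.71 (2.01 ± 0.37 lower), Wfdc2 was 1.99 lower and the olfactory receptor gene Olfr930 1.58 lower. These 6 were picked among genes whose groups did not overlap.

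The lists behaved in different ways in C vs A. Of 16 contractile genes 5 were higher (Actg2 1.13, Cnn1 0.82, Cald1 0.82, Smtn 0.60 and Tpm2 0.60), where 2.13% of all genes were. Of 18 TGF-beta and fibrosis genes 4 were higher (2.13% of all genes), among them Ccn2 (0.93) and Smad7 (0.85). Mgp and Tnfrsf11b were 0.81 and 0.74 higher. Of 18 endothelial markers 4 were lower (1.65% of all genes were): Nos3 (-0.67), Tek (-0.62), Robo4 (-0.61) and Tie1 (-0.49). Nos3 read 9.91, 9.60 and 9.26 in diabetic aorta and 8.99, 8.95 and 8.84 in macroangiopathy aorta, without overlap, and the endothelin gene Edn1 was 0.57 lower. None of these passed after adjustment. Fatty acid synthesis had 1 gene higher and 1 lower of 18, and the activator arm of the clock had none of 6.

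The tissue was compared by testing whether C minus G differed between aorta and skeletal muscle. Of 15956 genes tested, 16 (0.1%) passed after adjustment, 8 in each direction. Of the 40 genes called in aorta, 2 passed: Tnfrsf11b, where muscle read 6.77, 6.58 and 6.15 in healthy and 6.78, 6.99 and 6.98 in macroangiopathy mice, and Lypd1, which was not well above background in healthy aorta or in muscle, so that the size of its difference was not measured. In muscle alone, 467 genes (3.34%) passed after adjustment. Of the 40, 35 were tested there, all 35 with the sign they had in aorta, and 17 passed. Gdpd3 was 4.51 higher in muscle and Pttg1 lower (-4.78), and Mup1 read 13.08, 10.33 and 11.20 in healthy muscle and 5.73, 6.07 and 5.65 in macroangiopathy muscle.

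Cdh15 read 10.20, 10.81 and 12.07 in healthy and 8.66, 9.04 and 9.17 in macroangiopathy muscle, so it was lower there and higher in aorta, a difference between tissues of 4.01 ± 0.57 (adjusted P = 0.0477, limma). Fibin, a secreted protein of unsettled function, read 9.66, 11.15 and 10.22 in healthy aorta and 13.15, 13.44 and 13.97 in macroangiopathy aorta and differed by 3.45 between tissues. Alas2 (2.84) and the glutathione transferase gene Gstm2 (2.66) followed. In the other direction were Ropn1l (-3.32), of the sperm tail, Katnal2 (-3.18), a katanin-like microtubule severing protein, Ush1c (-2.46), the scaffold harmonin, and Psph (-2.15), which completes serine synthesis. Ush1c differed in muscle, where it was 2.35 higher in macroangiopathy mice, and hardly in aorta (-0.12). Leaving out single arrays moved the number of genes called from 16 to between 0 and 161. It was 0 without macroangiopathy aorta 2 or macroangiopathy muscle 1 or 2 (1337, 1374 and 1560 genes unadjusted by limma), 1 without macroangiopathy aorta 3, 2 without macroangiopathy muscle 3 and 3 without healthy aorta 3 or healthy muscle 1. It was 46 without healthy muscle 2, 152 without healthy aorta 1 and 161 without healthy aorta 2.

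**Figure D5:**
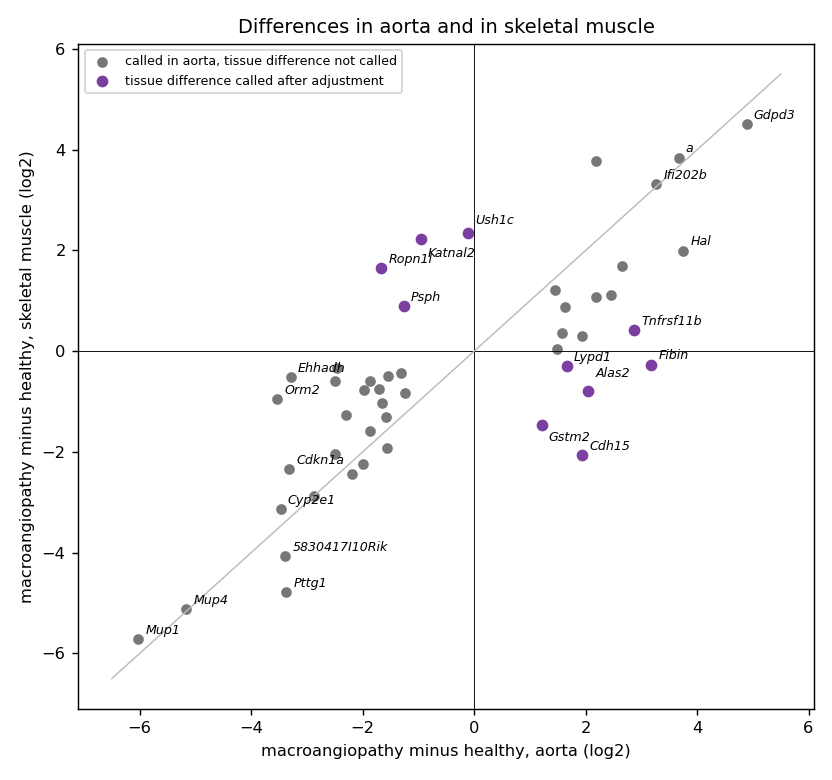
Difference between macroangiopathy and healthy mice (log2) in aorta (x axis) and in skeletal muscle (y axis) for the genes called in aorta (grey) and those with a called tissue difference that the text names (purple), with the line of equal change. Gdpd3 lies at the upper right and Mup1 at the lower left, near the line, while Cdh15 and Katnal2 lie in the quadrants of opposite sign.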

How the data were processed

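The authors measured total RNA on Agilent mouse arrays with a single dye (Cy3). Each of the 42 samples has its own array, and 6 arrays entered the comparison of macroangiopathy with healthy aorta. The authors deposited the scanner output of Agilent Feature Extraction 10.7 (version 10.7.3.1 per the file headers), with the intensity of 45018 spots as spot and local background medians before correction and the processed signal, with marks that flag irregular spots or a signal well above background. The log2 values that the authors deposited in addition, for 41267 probes, are quantile normalized (median 5.36 on every array) and follow the order of the processed signal (Spearman correlation 1). The probe coordinates are those of the array design (mm9).

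Intensities were corrected with normexp (offset 0) in limma 3.58.1 under R 4.3.3 with the package data.table (version 1.17.8), quantile normalized over the 42 arrays and expressed on the log2 scale. The 1639 control spots were left out and irregular spots were set to missing. Spots were averaged per probe and probes per gene (41174 probes, 34896 with a symbol, 21542 genes). Names came from the RefSeq accession for 27479 probes, from a symbol also in RefSeq for 5478 and from the file alone for 1939. Tested were genes for which at least 1 of the compared groups had a probe that exceeded background clearly on its 3 arrays. Between 58.4% and 72.1% of probes were well above background, no spot was saturated, and the number of arrays limits the precision. A bound on a fold takes the dim group at the higher of its own value and the lowest signal well above background on each array.

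Groups were compared with lmFit and eBayes, two-sided, after Benjamini-Hochberg adjustment below 0.05 and at the unadjusted 0.05 of the study's methods. The tissue difference is an interaction term over 12 arrays. P values set a difference against the spread between the 3 arrays within the groups, moderated across genes. In healthy aorta this spread includes a difference of slide. The gene lists, and the members named, were chosen with earlier results of these data known. Lists were counted at the unadjusted threshold. Named were the 15 largest increases and 15 largest decreases past adjustment that did not overlap, kept their direction with the slide term and have a gene symbol other than a clone name (filled up by P value). Of each list up to 4 members past the unadjusted threshold were named (where fewer than 2 passed, up to 2 more by level). In C vs A the 3 largest each way were named among genes past the unadjusted threshold whose groups did not overlap. The rule also named the 4 largest each way in the tissue difference, and the agouti gene. Some genes that this rule names are not reported here. Same-numbered arrays were not paired: the correlations of their deviations from the group means were -0.34, 0.22 and -0.37. The fit was tested on simulated data.

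Alternatives were an offset of 50, scaling of the processed signal by its 75th percentile, the authors' log2 values, the brightest probe, normalization over aorta arrays only, no filter or a stricter one, fits of 21 aorta or 42 arrays with the slide as a random block or a term, a variance trend, a replicate block, and leaving out each array. Leaving out healthy 1 and macroangiopathy 3 together, which have the highest lymphocyte marker levels, and the list counts without healthy 1, were added after seeing the data.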

Additional observations from a re-analysis of the deposited data

Results flagged for a closer look

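For 10 of the genes named above the change from healthy to macroangiopathy mice differed between aorta and skeletal muscle, tested with an interaction term after adjustment (limma). The difference between tissues was 4.01 for Cdh15, 3.45 for Fibin, 2.84 for Alas2, 2.66 for Gstm2, 2.46 for Tnfrsf11b and 1.96 for Lypd1, which changed more upward in aorta. Lypd1 was not well above background in healthy aorta or on any muscle array, so its value rests on signals below background and is no measured size. It was -3.32 for Ropn1l, -3.18 for Katnal2, -2.46 for Ush1c and -2.15 for Psph, which changed more upward in muscle. Adjusted P values ranged from 0.0116 for Lypd1 and Katnal2 to 0.0493 for Gstm2, Tnfrsf11b and Ush1c. In Cdh15, Alas2, Gstm2, Ropn1l, Katnal2 and Psph the groups did not overlap in either tissue, and the directions in aorta and muscle were opposite. These genes were picked by the tissue difference on the same arrays, so neither trait is an independent check. In aorta the groups did not overlap for 28.2% of the genes tested. The probes of Katnal2 gave -1.67 and -0.25 in aorta.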

How the results depend on the processing

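Of the alternatives to the comparison of C with G after adjustment (40 genes), 8 that changed the correction, scaling, probe choice, filter or variance model gave 28 to 58. The fit of 21 aorta arrays gave 1059 genes, 626 with slide as a random block, 364 with a term for slide 1 and 140 without healthy 1 and 3. Without healthy 1 and macroangiopathy 3, an alternative chosen after seeing the data, it gave 13. Leaving out single arrays gave 0 to 380. A replicate block gave 0 genes after adjustment and 2176 unadjusted, and 1 gene for the tissue difference, but the numbers do not pair the arrays. At the unadjusted threshold (2918 genes), the 21-array fit without healthy 1 and 3 gave 1878 and leaving out single arrays 1383 (macroangiopathy 2) to 3966, with 1523 without macroangiopathy 3. C vs A (591 genes) gave 912 without the filter, 268 in the 21-array fit, 200 with slide as a random block, 288 with the slide term and 310 to 1124 without single arrays. The tissue difference (16 genes) gave 48 with an offset of 50, 26 with the brightest probe, 5 without the filter, 3 with the stricter filter, 515 in the fit of 42 arrays, 255 with slide as a random block and 0 to 161 without single arrays. Reversed in sign were 1810037I17Rik (-0.33) and Thumpd1 (0.05) with the brightest probe, and Klf2 (-0.30) with the slide term. The causes were not tested. Spots not well above background limit the differences of genes near it to bounds.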
